A study of Mus musculus with 2 samples.

Results

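The cells described here are 861 Chil3/Vcan monocytes from mouse carotid arteries, 479 from the EC-Cx43-KO library and 382 from the control library. They were taken from 14451 kept barcodes (7712 and 6739), which had at least 300 detected genes and at most 15% mitochondrial UMIs, out of 15613 deposited barcodes (8315 and 7298). A UMI is 1 counted RNA molecule. A cell passed a mononuclear phagocyte gate, with at least 2 of Csf1r, Adgre1, Cd68 and Fcgr1 detected and no UMI of the dendritic cell gene Cd209a, in 2393 and 2139 cells. It was then called a Chil3/Vcan monocyte when at least 3 of the 5 genes of panel D (Chil3, Vcan, Ccr2, Ifitm6 and Dmkn) were detected, and more of them than of each other panel. The other panels of 5 genes were A (Ccl24, Fn1, Mmp19, Tppp3, Slc7a2), B (Fabp5, Hmox1, Lgmn, F7, Ednrb), C (the interferon-induced Cxcl10, Rsad2, Ifit2, Cmpk2, Irf7) and E (Lyve1, Cd163, C1qa, Folr2, Cbr2, of tissue-resident macrophages). The cells were thus chosen by the measured UMIs of the gate and panel genes, whose values are given below as a description only.

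Both libraries are 10x 3′ single-cell RNA of injured carotid arteries collected 18 hr after temporary ligation. The EC-Cx43-KO mice had the genotype CDH5 Cre+ Cx43fl/fl and the control mice CDH5 Cre- Cx43fl/fl, so mice of both groups carried the floxed alleles of Cx43, the gap junction protein connexin 43 encoded by Gja1. The Cre was inducible and driven by the endothelial promoter of Cdh5, the series' design text calls the knockout specific to endothelium, and the labels used here name no inducing agent, age or sex. Arteries of 1 genotype were combined, in a number of animals not given per library, after a digest of 20 min aimed at the inner layer, red cells were lysed and the cells were frozen. There was 1 library per group, so no test between groups was possible, and every interval below is a 95% interval that covers counting error only.

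Classical, or Ly6C-high, monocytes leave the bone marrow in a CCR2-dependent way and are the first monocytes to enter injured tissue. They carry Ly6C and secreted granule proteins, and in the tissue they lose these and take up macrophage programmes with lysosomal, lipid-handling and scavenger receptor genes. In mouse, Chil3 encodes the chitinase-like lectin Ym1 and Vcan the matrix proteoglycan versican.

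The libraries held 54392831 (EC-Cx43-KO) and 48862850 UMIs (control). The monocytes were deep cells, with medians of 8485 and 8494 UMIs, 2794 and 2893.5 genes and 1.55% and 1.45% mitochondrial UMIs. Their summed counts, 4491226 and 3430490 UMIs, are the base of each level below, given as CPM, the gene's count over that sum scaled to a total of 1000000. The libraries shared 17 barcode sequences, 3 of them carried by a monocyte and 0 by monocytes of both libraries. The libraries differed in their mix of animals: 235 of the EC-Cx43-KO monocytes had UMIs of Xist, the RNA of the inactive X chromosome of female cells, and none of 4 Y-linked genes, and 143 had Y-linked and no Xist UMIs, against 234 and 90 control monocytes. Gja1 itself was at 38.5 CPM (Poisson interval 33.0 to 44.7) in EC-Cx43-KO and 32.1 CPM (26.4 to 38.6) in control monocytes, a log2 ratio of 0.26 (-0.09 to 0.62). A 3′ count does not check the genotype, because the sources used here do not give the deleted part.

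Markers of other cell types were present in some of the monocytes. At least 3 markers of 1 other type were found in 52 EC-Cx43-KO and 31 control monocytes, most often neutrophil (22 and 20 cells), fibroblast (20 and 7 cells) and erythroid markers (12 and 1 cells). Summed over the monocytes, the 7 neutrophil markers came to 396 and 255 CPM, the 6 fibroblast markers to 647 and 124 CPM and the 5 erythroid markers to 813 and 18.9 CPM. In the EC-Cx43-KO library the cell with most held 87.0% (Hba-a1) to 91.1% (Hbb-bt) of the UMIs of each haemoglobin gene. For the fibroblast markers it held 24% (Pdgfra) to 57.2% (Col1a2). The 7 endothelial markers came to 20.3 and 26.2 CPM, the 6 B cell markers to 12.9 and 19.5 CPM, the 5 platelet markers to 331 and 348 CPM, and the 7 dendritic cell markers to 51.0 and 38.8 CPM with Xcr1 at 0 in both libraries. The 5 smooth muscle markers came to 185 and 85.1 CPM, the 7 T and NK cell markers to 7.13 and 5.83 CPM with Trac at 0 in both libraries, and the 5 mast cell markers to 0.89 and 0.58 CPM. The 12 EC-Cx43-KO and 6 control monocytes with over 20000 UMIs, and cells with 3 markers of another type, made up 56 and 33 cells. Values without them are given beside the results they move.

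The panel D genes and Lyz2, the lysozyme gene of myeloid cells, are the markers of the label, and the rule fixed the presence of the panel D genes. Chil3 (ENSMUSG00000040809) was at 2806 CPM in EC-Cx43-KO and 3746 CPM in control monocytes, found in 91.0% and 92.4% of them. Vcan was at 2390 and 2556 CPM, found in 98.1% and 98.4%. Ccr2, the receptor for the chemokine CCL2, was at 999.5 and 1160.5 CPM, found in 97.9% and 98.2%. The interferon-inducible family gene Ifitm6 was at 273 and 287 CPM, found in 79.3% and 81.2%, and the dermokine gene Dmkn at 234 and 244 CPM, found in 74.1% and 73.8%. Lyz2 was at 6911 and 5729 CPM. All 5 panel D genes were detected in 50.3% of EC-Cx43-KO and 52.6% of control monocytes. Ly6c2, which encodes Ly6C2 and was not used by the rule, was found in 64.7% and 67.3%. After thinning each cell to 2000 UMIs, Chil3 was found in 80.8% and 86.9% of the monocytes, in 43.4% and 44.2% of the other gated cells, and in 1.27% and 3.08% of fibroblasts by markers, which should lack it (median depths of 8485 and 8494, 7514.5 and 7458, and 7426 and 7454 UMIs).

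**Figure D1:**
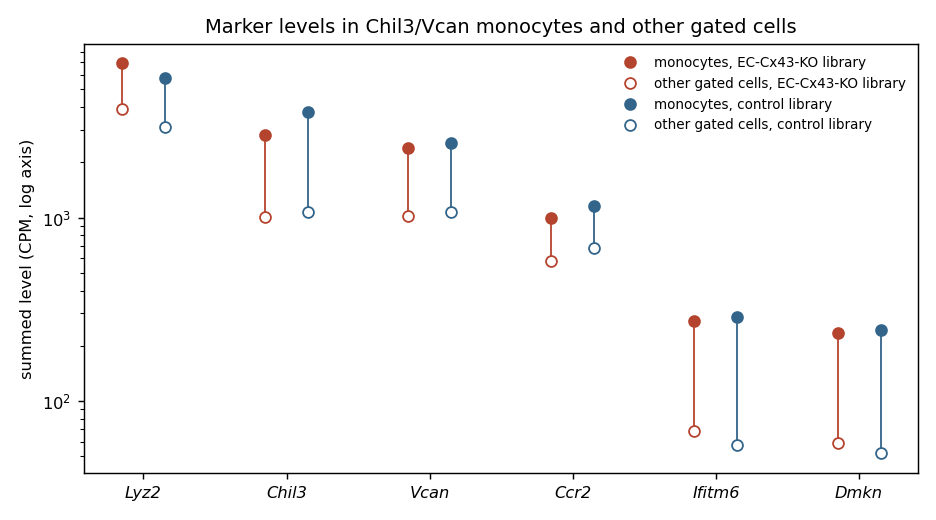
CPM of Lyz2 and the panel D genes in Chil3/Vcan monocytes and in the other gated cells, on a log axis, for the EC-Cx43-KO and the control library. Chil3 was at 2806 and 3746 CPM in the monocytes, against 1009.8 and 1077 CPM in the other gated cells.

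Many gated cells lay close to the limit of the rule. Of the gated cells with at least 3 panel D genes, 1508 in the EC-Cx43-KO and 1371 in the control library, 31.8% and 27.9% were kept, 432 and 417 cells tied with another panel, and 597 and 572 cells had more genes of another panel. Among the kept cells 62.6% and 64.9% led the next panel by 1 gene only. Just outside the limit, tied cells had Chil3 at 2026 CPM in the EC-Cx43-KO and 2094 CPM in the control library. Just inside it, cells with a lead of 1 gene had 2325 and 3364 CPM, and those with a lead of 2 or more had 3716 and 4516 CPM. Chil3 is counted in the lead, so its order follows from the rule. Some genes that the rule did not use also varied with the lead. Napsa, an aspartic protease gene, was in the EC-Cx43-KO library at 45.6 CPM in cells below another panel, 96.2 in tied cells, 134 at a lead of 1 and 192 at 2 or more, and in the control library at 32.2, 67.9, 128 and 182 CPM. Spp1, the osteopontin gene of wound macrophages, ran the other way, at 13745, 7414, 4225 and 1661 CPM in the EC-Cx43-KO and 13725, 7052, 5572 and 1721 CPM in the control library. Arg1, which encodes arginase 1, likewise lay at 4019, 2383, 1584 and 551 CPM and at 3604, 2381, 1281 and 382 CPM. Ly6c2 followed the lead in the control library only, at 80.7, 168, 343 and 500 CPM. In the EC-Cx43-KO library it was highest in cells below another panel, at 671, 474, 516 and 557 CPM. Cells outside the limit differed between the libraries. Panel C was at or above panel D in 240 EC-Cx43-KO and 53 control cells. Cxcl10 in cells below another panel was at 984 and 82.7 CPM. The part of this in the Ly6c2 levels was not tested.

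**Figure D2:**
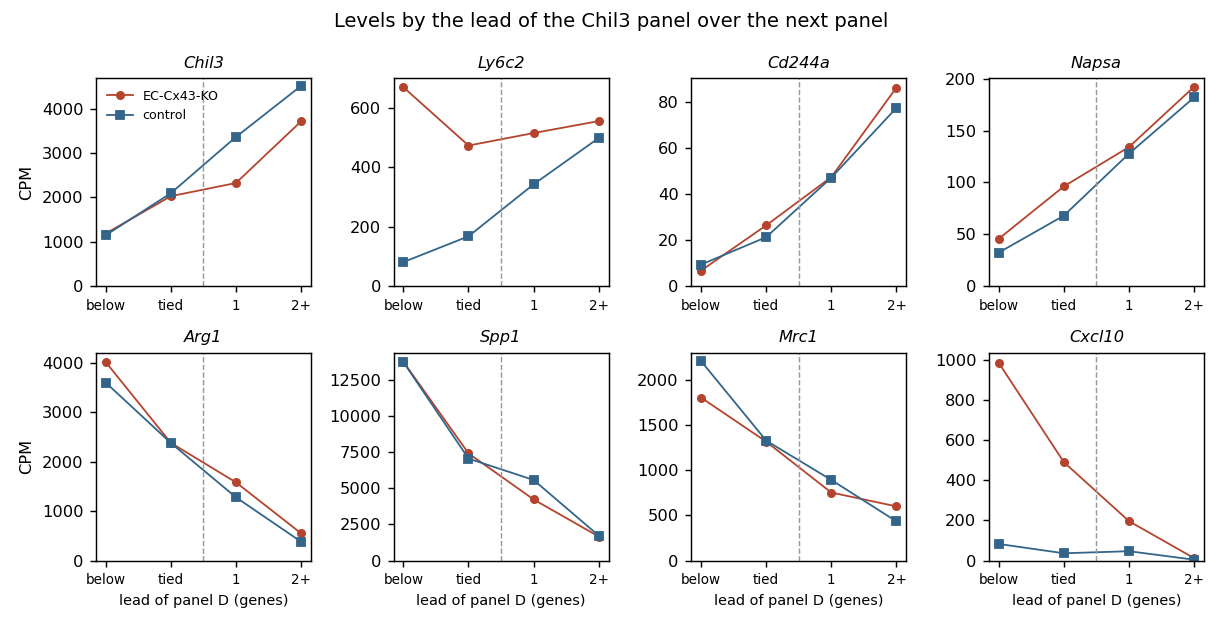
CPM of 8 genes in gated cells with at least 3 panel D genes, by the lead of panel D over the next panel (below, tied, 1, 2 or more), for the EC-Cx43-KO and the control library. The dashed line marks the limit of the rule. Chil3, Cd244a and Napsa are higher with a larger lead, Arg1, Spp1 and Mrc1 are lower, and Cxcl10 is high below the limit in the EC-Cx43-KO library.

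Depth also bears on who is called. The share of gated cells called monocytes was 1.67% in the EC-Cx43-KO and 1.82% in the control library under 2000 UMIs, 9.33% and 8.98% from 2000 to 5000, 24.0% and 22.1% from 5000 to 10000, 23.0% and 20.8% from 10000 to 20000, and 19.7% and 8.96% above that. Counting the panels after thinning every cell to 2000 UMIs left 216 and 195 cells.

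Set against the other gated cells (1914 EC-Cx43-KO and 1757 control), the monocytes had more RNA of bone-marrow and blood monocyte genes. The rule chose the cells within this contrast, so these values are a description. A gene was called at 1.5-fold, a log2 ratio of 0.58, when it passed the same way in both libraries. Of 12425 genes with at least 50 UMIs, 335 were higher (2.70%) and 1516 lower (12.2%). A gene with under 3 UMIs took 3, which touched the monocytes' value of 6 of the higher and 270 of the lower genes.

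Several receptor genes and the protease gene Napsa were among the 15 highest. Cd244a, a receptor of the SLAM family, was at 60.8 CPM in the monocytes and 18.1 CPM in other gated cells of the EC-Cx43-KO library, and at 57.1 and 15.99 CPM in the control library. Flt3, the cytokine receptor of marrow progenitors and dendritic cells, was at 26.7 and 8.35 CPM in the EC-Cx43-KO and 19.2 and 6.33 CPM in the control library. Its level is low, and it was found in 11.1% of EC-Cx43-KO monocytes. Gpr183, an oxysterol receptor that guides cell migration, was at 107 and 32.8 CPM and at 94.2 and 34.8 CPM. Napsa was at 154 and 58.3 CPM and at 146 and 43.8 CPM. Outside the 15 highest, Itgal, the integrin chain of LFA-1, was at 119 and 52.7 CPM and at 150 and 43.5 CPM. The inhibitory receptors Siglece and Btla also ranked among the 15 highest. In each of these genes the monocytes were above the other gated cells in both libraries.

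Some genes best known from neutrophil granules and the acute phase were higher too. Of 9 granule and progenitor genes 4 were higher and 2, Cd34 and Kit, lower, and of 13 alarmin and antimicrobial genes 3 were higher and 2, Lyz1 and Ptx3, lower (2.70% and 12.2% over all genes). Elane had 0 UMIs in control monocytes and was called higher there only because 0 took 3. In the EC-Cx43-KO library 2 cells, described below, held 44 and 76 of its 120 UMIs and 180 and 217 of the 464 Prtn3 UMIs. Cd177 was at 36.3 CPM in the monocytes and 12.4 CPM in other gated cells of the EC-Cx43-KO library, and at 45.5 and 10.1 CPM in the control library. Lcn2, which encodes the iron-binding protein lipocalin 2, was at 82.8 and 24.7 CPM and at 73.5 and 26.3 CPM. Mmp8, a granule collagenase, was at 88.4 and 32.7 CPM and at 83.1 and 26.9 CPM, and the haptoglobin gene Hp at 299 and 104 CPM and at 306 and 120 CPM. Neutrophils express these genes, and neutrophil markers were at 396 and 255 CPM in the monocytes; their part was not tested. After thinning to 2000 UMIs, at least 1 of Cd177, Lcn2, Mmp8 and Lrg1 was found in 30.1% of EC-Cx43-KO and 30.4% of control monocytes, and at least 1 of Flt3, Napsa, Cd244a and Gpr183 in 44.4% and 42.3%. The second set was found in 48.6% and 47.4% of cells with the first set and in 42.5% and 40% of cells without it. Both sets were formed after their values were seen. Pclaf and Top2a ranked high as well but lay in few cells.

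Genes of settled and lipid-laden macrophages were lower. Mmp12, the macrophage elastase, was at 0.22 CPM in the monocytes and 45.3 CPM in other gated cells of the EC-Cx43-KO library, and at 0.29 and 27.7 CPM in the control library. Retnla, a gene of alternatively activated macrophages, was at 0.45 and 46.9 CPM and at 1.17 and 67.8 CPM. Ccl8, a chemokine of resident macrophages, was at 19.1 and 370 CPM and at 6.41 and 102 CPM. Gpnmb was at 10.9 and 55.0 CPM and at 9.04 and 43.9 CPM, and the mannose receptor gene Mrc1 at 701 and 1903 CPM and at 742 and 2029 CPM. Fabp4 and Cd36, of fatty acid handling, were at 8.46 and 67.0 CPM and at 516 and 1336 CPM in the EC-Cx43-KO library, with 8.75 and 64.9 CPM and 459 and 1287 CPM in the control library. Il10, an anti-inflammatory cytokine, was at 6.23 and 58.3 CPM and at 5.83 and 35.9 CPM. Kitl, Vcam1, Cxcl13 and Cxcl5 were among the 15 lowest too.

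**Figure D3:**
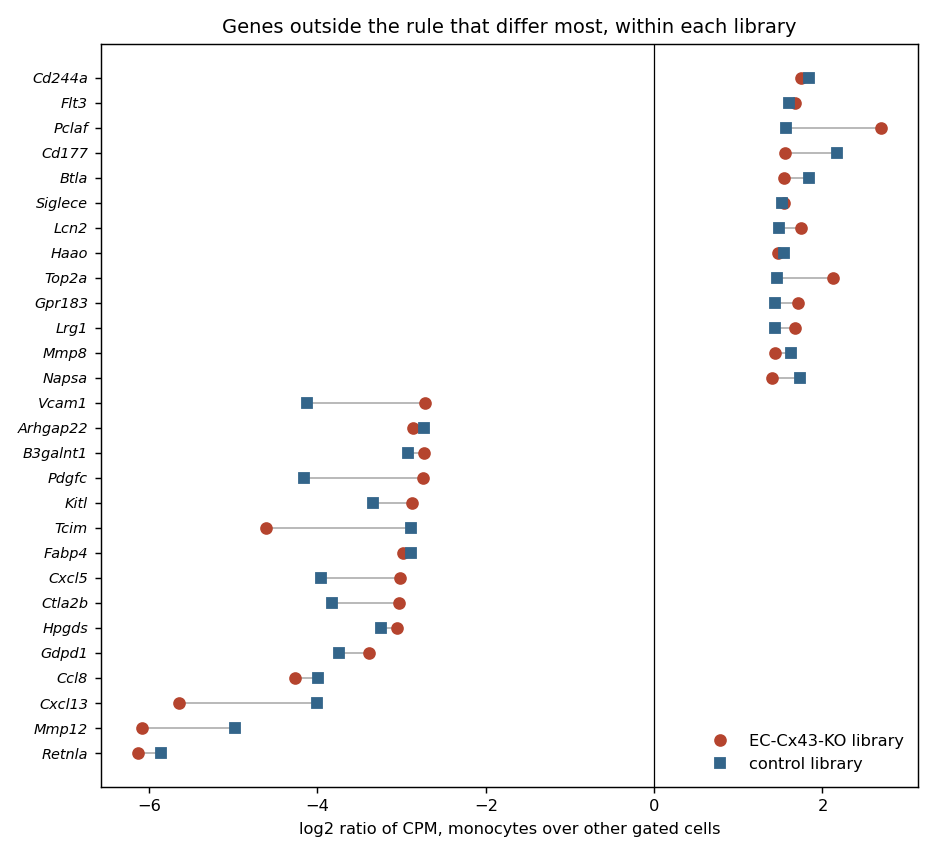
Log2 ratio of CPM, Chil3/Vcan monocytes over other gated cells, for the highest and lowest genes outside the rule, within the EC-Cx43-KO and the control library. Elane and Sfrp5, with 0 UMIs in control monocytes, are left out. Cd244a lies at 1.74 and 1.84 and Retnla at -6.13 and -5.86.

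Counts over whole lists are set beside the 2.70% higher and 12.2% lower of all genes. Of 22 classical monocyte genes 10 were higher and 0 lower, with medians of 0.54 in the EC-Cx43-KO and 0.89 in the control library, beside -0.10 and -0.14 over all genes. Of 22 macrophage maturation genes 0 were higher and 17 lower (medians -1.43 and -1.06). Lysosome genes had 7 of 21 lower, with Ctsb, the gene of the protease cathepsin B, at 1630.1 CPM in the monocytes and 4307 CPM in other gated cells of the EC-Cx43-KO library and at 2072 and 4990.4 CPM in the control library, and lipid handling genes had 9 of 18 lower. Of 14 growth factor genes 6 were lower, among them Igf1 and Hbegf, and of 15 chemokine genes 6 were lower and 0 higher, where 12.2% of all genes were lower. Of 18 inflammatory cytokine genes 0 were higher and 2, Il10 and Il1a, lower, and Il1b was at 1204 and 799 CPM and at 928 and 623 CPM, just short of the call in the control library. Among 15 coagulation genes F5, coagulation factor V, was the one called higher (50.1 and 24.7 CPM, 60.9 and 23.9 CPM) and 4 were lower, thrombomodulin (Thbd) included. The 77 ribosomal protein genes had medians of 0.54 and 0.35, with 5 called higher. The 24 transcription factor genes had 0 called either way, and Gja1 was at 38.5 and 57.2 CPM and at 32.1 and 53.7 CPM.

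Against the panel A group, the Ccl24/Fn1 cells of 347 EC-Cx43-KO and 356 control cells, 406 of 10213 genes were higher (3.98%) and 1160 lower (11.4%). Ly6c2 separated these groups in both libraries, at 530 CPM in the monocytes and 96.3 CPM in panel A cells of the EC-Cx43-KO library, and at 395 and 72.7 CPM in the control library. Klra2 was at 139 and 26.7 CPM and at 136 and 29.9 CPM. Ptx3, Has1, Adam12 and Vcam1 were lower in the monocytes. Against the panel B group, the Fabp5/Hmox1 cells of 400 EC-Cx43-KO and 497 control cells, 706 of 10340 genes were higher (6.83%) and 1078 lower (10.4%). The monocyte genes were much the same, with Lcn2 at 82.8 and 10.9 CPM and at 73.5 and 7.58 CPM, and 12 of 21 lysosome and 10 of 18 lipid handling genes were lower. Gpnmb was at 10.9 CPM in the monocytes and 160.04 CPM in panel B cells of the EC-Cx43-KO library, and at 9.04 and 94.1 CPM in the control library. Against the panel C group, of 159 EC-Cx43-KO and 18 control cells, 558 of 9163 genes were higher (6.09%) and 914 lower (9.97%). Of 38 interferon-stimulated genes 36 were lower. Of 22 classical monocyte genes 6 were higher and 4 lower, and of 7 granule and progenitor genes 0 were called either way. The classical monocyte genes summed to 18526 CPM in the monocytes and 25132 CPM in panel C cells of the EC-Cx43-KO library. In the control library they summed to 18595 and 15505 CPM. Nrg1, which encodes the growth factor neuregulin 1, was at 199 CPM in the monocytes and 21.4 CPM in panel C cells of the EC-Cx43-KO library, and at 296 and 78.5 CPM in the control library. Against the panel E group, the Lyve1/Cd163 cells of 134 EC-Cx43-KO and 62 control cells, 1258 of 9260 genes were higher (13.6%) and 1585 lower (17.1%). Plcb1, a phospholipase C gene, was at 1764 CPM in the monocytes and 20.9 CPM in panel E cells of the EC-Cx43-KO library, and at 1811 and 55.0 CPM in the control library. Coagulation factor X (F10) was at 305 and 2.20 CPM and at 300.2 and 12.7 CPM. Of 24 glycolysis and hypoxia genes 19 were higher than in panel E cells (medians 1.55 and 1.13, beside -0.02 and -0.05 over all genes), while 13 of 26 immediate early and stress genes were lower.

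Variation among the monocytes was measured next. Overdispersion, the variance beyond counting relative to the squared mean, had medians of 0.73 in the EC-Cx43-KO and 0.74 in the control library over 5243 genes with at least 0.2 UMI per cell. The panel D genes, whose variation the rule limits, had 0.46 and 0.48 for Vcan, 0.41 and 0.30 for Ccr2, 0.81 and 0.85 for Chil3, 0.76 and 0.67 for Ifitm6 and 0.61 and 1.13 for Dmkn. The genes with the highest values were Cytl1 (110 and 101), the neutrophil alarmins S100a9 (65.9 and 78.3) and S100a8 (43.3 and 48.5), and genes of vessel wall cells, among them Dmd, Acta2, Mgp, Timp3 and Cav1. Acta2, the smooth muscle actin gene, had 95.3% and 94.5% of its UMIs in the 10% of cells with most. S100a9 was found in 35.9% and 34.8% of monocytes, and 1 cell held 49.9% of its UMIs in the EC-Cx43-KO and 35.4% in the control library. Across 479 EC-Cx43-KO and 382 control monocytes S100a9 went with the immune-response gene Acod1 (Pearson r of 0.60 and 0.49). These are log values scaled for depth, and each r is over cells that share 1 library. Acod1 was found in 9.60% and 9.42% of monocytes, and 1 cell held 71.2% and 22.6% of its UMIs, so r rests on few cells. Class II genes ranked next. H2-Eb1 was found in 10.2% and 11.8% of monocytes, and the 10% of cells with most held 99.9% and 98.96% of its UMIs. Ly6c2 varied more in EC-Cx43-KO (5.64) than in control monocytes (1.95).

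A pair of EC-Cx43-KO cells stood apart. With 63548 and 49108 UMIs they held 44 and 76 of the 120 Elane UMIs, 37 and 92 of the 142 Mpo UMIs and 180 and 217 of the 464 Prtn3 UMIs of that library's monocytes. These genes encode the serine proteases and the peroxidase of primary granules, made in marrow progenitors. Their cell cycle RNA was at 11487 and 8369 CPM, against a median of 364 CPM over the EC-Cx43-KO monocytes, and 5 and 3 panel D genes were detected in them. Control monocytes held 0 Elane, 4 Mpo and 53 Prtn3 UMIs. Prtn3 itself was found in 44 EC-Cx43-KO and 39 control monocytes. After thinning to 1000 UMIs, at least 3 UMIs of 47 cell cycle genes were found in 1.46% of EC-Cx43-KO (7 cells, exact binomial interval 0.59% to 2.99%) and 0.52% of control monocytes (2 cells, 0.06% to 1.88%). In neutrophils by markers, which do not divide, the shares were 2.62% and 4.8% (median depths of 1903.5 and 2072 UMIs), so the shares in monocytes were at or below background. Unthinned they were 58.7% and 66.2%.

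The first comparison between the groups asks how common the monocytes were. They made up 6.21% (exact binomial interval 5.68% to 6.77%) of kept cells in the EC-Cx43-KO and 5.67% (5.13% to 6.25%) in the control library, a log2 ratio of 0.13 (Katz interval -0.06 to 0.32). Of the gated cells they were 20.0% and 17.9%. The difference was within counting error by both denominators. A cell with as many panel C as panel D genes cannot be a member, and 159 EC-Cx43-KO and 18 control cells fell into the panel C group. With panel C not compared the monocytes were 564 and 393 cells, or 7.31% and 5.83%, and the log2 ratio was 0.33. With panels counted after thinning they were 3.63% and 3.74%, and the ratio was -0.04. With all kept cells as the base, monocytes with Xist UMIs alone gave -0.19 and those with Y-linked UMIs alone 0.47. These ratios also hold the mix of animals. Monocytes with Xist UMIs alone were 235 of 2987 EC-Cx43-KO and 234 of 3365 control kept cells of that kind. With Y-linked UMIs alone they were 143 of 2079 and 90 of 1218 cells. With kept cells of the same kind as the base, both directions turned. The EC-Cx43-KO share was then the higher with Xist and the lower with Y-linked UMIs. The digest, pooling and freezing cannot be told apart from the genotype.

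The second comparison asks which genes differed between EC-Cx43-KO and control monocytes. Of 8714 genes with at least 50 UMIs, 413 were at least 1.5-fold higher (4.74%) and 361 lower (4.14%), and the median log2 ratio was -0.06. Above 200 UMIs 86 of 5314 were higher (1.62%) and 72 lower (1.35%). The genes named are the 10 highest and 10 lowest that met these limits. They had at least 100 UMIs and were found in at least 5% of monocytes of the library with more. They were also at least as abundant in the monocytes as in the other kept cells. Gdf3 and Plxdc1 (each in 4.18% of EC-Cx43-KO monocytes) and Hist1h2ae (in 3.66% of control monocytes) reached 5% only in the library where they were higher.

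Among the highest 10, 5 rested on few cells. Prtn3 was at 103 CPM in EC-Cx43-KO and 15.4 CPM in control monocytes (log2 ratio 2.74), and at 0.12 without the deep cells and those with markers of another type. Gria3, a glutamate receptor gene, was at 43.6 and 10.8 CPM (2.02), and at -0.27 without those cells. The replication-dependent histone genes Hist1h1b (1.73) and Hist1h2ap (1.31) came to 0.18 and -0.25, and Hist1h2ae (2.36) to 0.92. The other 5 did not move by as much. Isg15, the interferon-stimulated ubiquitin-like protein, was at 239 CPM (225 to 254) in EC-Cx43-KO and 101 CPM (90.2 to 112) in control monocytes, a log2 ratio of 1.25 (1.07 to 1.43), and 1.35 without those cells. Hist1h1e was at 65.0 and 28.6 CPM (1.19), Isg20, an interferon-stimulated exonuclease, at 37.6 and 16.6 CPM (1.18), Ramp1, a receptor subunit for the neuropeptide CGRP, at 21.8 and 9.62 CPM (1.18), and the chemokine gene Ccl12 at 251 and 124 CPM (1.01).

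The lowest genes were of low level. Gdf3, a TGF-beta family ligand, was at 8.24 CPM in EC-Cx43-KO and 23.6 CPM in control monocytes (-1.52), Plxdc1 at 10.7 and 30.0 CPM (-1.49, and -0.38 with doublets removed) and Tmem80 at 13.4 and 31.8 CPM (-1.25). Dhdh (-1.41) came to -0.11 without the deep cells and those with markers of another type, and 56.8% of its control UMIs lay in 1 cell. Tnip3, an inhibitor of NF-kB signalling, was at 24.3 and 47.5 CPM (-0.97, and -0.54 without those cells). C2cd2l, Ccdc22, Rasgrp1, Map11 and Sfxn2 lay between -0.94 and -0.87.

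**Figure D4:**
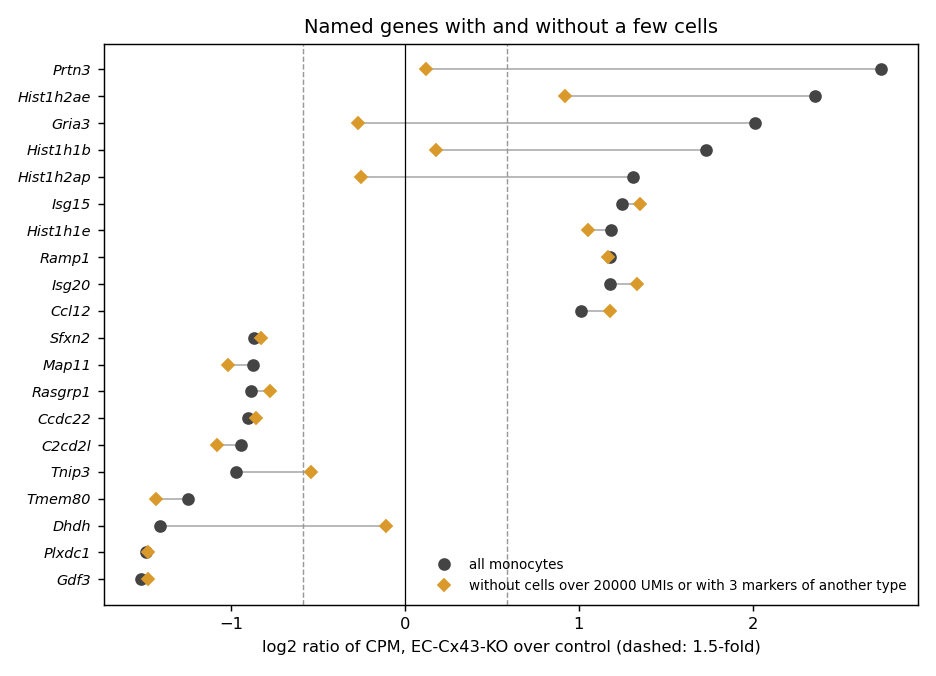
Log2 ratio of CPM, EC-Cx43-KO over control, for the 10 highest and 10 lowest genes in Chil3/Vcan monocytes, with all cells and without cells over 20000 UMIs or with 3 markers of another cell type. Dashed lines mark 1.5-fold. Prtn3 moves to 0.12 and Isg15 stays at 1.35.

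Chemokine genes were among the secreted factors that differed. Of 12 measured 5 were higher and 0 lower (median 0.41), beside 4.74% and 4.14% of all genes. Cxcl2, which attracts neutrophils, was at 2476 CPM (2430.1 to 2522) in EC-Cx43-KO and 1403 CPM (1363 to 1443) in control monocytes (log2 ratio 0.82), and Cxcl3 at 1352 and 873 CPM (0.63). Ccl7, a ligand of CCR2, was at 1915 and 1135 CPM (0.75), while Ccl2, the main ligand, was at 3667 and 3097 CPM (0.24). Ccl8 (19.1 and 6.41 CPM) is a gene of the resident macrophages, and 1 cell held 37.2% of its EC-Cx43-KO and 50% of its control UMIs. Ccl24, the eotaxin 2 gene of panel A and so partly fixed by the rule, was at 1022 and 473 CPM (1.11). With panels counted after thinning to 2000 UMIs, these ratios were 0.35 for Cxcl2, 0.26 for Cxcl3, 0.19 for Ccl7, 0.33 for Ccl12 and 0.46 for Ccl24, all under 1.5-fold.

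Of 8 growth factor genes 5 were higher and 0 lower (median 0.98), beside 4.74% and 4.14% of all genes, and all 5 were of low level. Areg, the EGF receptor ligand amphiregulin, was at 50.1 CPM in EC-Cx43-KO and 11.4 CPM in control monocytes (2.14, interval 1.64 to 2.67), found in 7.31% and 4.97% of them. Inhba, the activin A subunit, was at 26.3 and 10.2 CPM (1.36), Hbegf at 14.2 and 5.54 CPM (1.36), Pdgfa at 8.91 and 3.79 CPM (1.23) and Hgf, hepatocyte growth factor, at 26.9 and 16.3 CPM (0.72). With panels counted after thinning Areg was at -0.85 and Hbegf at 0.36. Among 15 cytokine genes Il6 (23.8 and 9.04 CPM, 1.40, and 0.26 after such thinning) and Csf1 (130 and 59.5 CPM, 1.13) were higher. Csf1, the macrophage growth factor, came to 0.08 without the deep cells and those with other markers, and 1 cell held 32.2% of its EC-Cx43-KO UMIs.

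Lpl was the clearest single gene with less RNA. The gene encodes lipoprotein lipase, which frees fatty acids from lipoproteins. It was at 84.2 CPM (75.9 to 93.1) in EC-Cx43-KO and 304 CPM (286 to 323) in control monocytes, a log2 ratio of -1.85 (-2.03 to -1.68), and -1.75 without the deep cells and those with other markers. After thinning to 2000 UMIs Lpl was found in 6.69% of EC-Cx43-KO and 16.01% of control monocytes, in 17.4% and 31.1% of the other gated cells and in 0 of the B, T and NK cells by markers (209 and 147 cells, exact binomial upper limits of 1.75% and 2.48%, median depths of 3369 and 3953 UMIs). Of the 18 lipid handling genes Lpl was the one called, beside 4.74% higher and 4.14% lower of all genes, and the median was -0.07. Other lists held few calls, beside the same shares. Of all 8714 genes, 3582 lay above 0 and 5132 below it. The 22 classical monocyte genes had 0 called either way (median 0.06), as had the 16 adhesion genes (-0.09), the 20 lysosome genes (-0.21, with 19 below 0) and the 40 nuclear respiratory chain genes (0.17, with 39 above 0). All 76 ribosomal protein genes were above 0 (median 0.31) with 1 called. Chil3 was at -0.42, Fpr2, a formyl peptide receptor, at -0.61 (63.7 and 97.4 CPM) and Hspa1a, a heat shock gene, at -0.84 (36.5 and 65.3 CPM).

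Interferon-stimulated genes need the rule to be kept in view, since a cell with as many panel C as panel D genes is left out. They act against viruses inside the cell and are switched on through the interferon receptor by factors that bind promoter elements with repeated GAAA letters. The motif, GAAA and after any 2 bases a further GAAA, was looked for on both strands (TTTC in the same way on the other) in the 250 bases before the start of each gene in the RefSeq promoters of GRCm38.p6. It was present in 13 of the 30 matched genes of the list (43.3%), in 2 of the 5 panel C genes, in 0 of the 6 genes Chil3, Vcan, Ccr2, Ifitm6, Dmkn and Lyz2, and in 936 of 27025 genes in all (3.46%). Stretches of 30 bases around it are shown for genes described next, with bases of the motif in capitals, overlapping matches merged, 5′ to 3′ on the strand of the gene.
Isg15, chr4:156200871-156200900, minus strand: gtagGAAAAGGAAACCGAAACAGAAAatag
Ifit3, chr19:34583397-34583426, plus strand: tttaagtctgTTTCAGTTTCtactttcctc
Ifit1, chr19:34640784-34640813, plus strand: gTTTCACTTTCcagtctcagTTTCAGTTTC
Cxcl10, chr5:92349083-92349112, minus strand: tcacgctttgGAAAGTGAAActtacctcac
Rsad2, chr12:26456553-26456582, minus strand: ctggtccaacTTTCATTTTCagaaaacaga
A match is a description of these letters and not a shown binding site.

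Over all of the monocytes, 4 of the 35 measured genes of the list were higher and 0 lower, beside 4.74% and 4.14% of all genes. The median was 0.14, and 32 lay above 0, beside 3582 of all 8714 genes. Ifit3 was at 21.8 CPM in EC-Cx43-KO and 4.96 CPM in control monocytes (2.14), Isg15 at 239 and 101 CPM and Ifit1 at 54.1 and 27.4 CPM (0.98). Ifi204, at 620.3 CPM in both (0.00), was close. The panel C genes were Cxcl10 at 132 and 32.6 CPM (2.02), Rsad2 at 129 and 72.0 CPM (0.84) and Irf7 at 92.6 and 70.0 CPM (0.40). With panel C not compared, the list median was 0.73, with 23 of 38 genes higher (6.29% of all genes were) and 0 lower (4.60%).

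The list split by the sex of the cells. In monocytes with Xist and no Y-linked UMIs, 235 EC-Cx43-KO and 234 control cells, the list's summed level was 7680 CPM in EC-Cx43-KO and 5206 CPM in control cells. The median log2 ratio was 0.65, with 20 of 35 genes higher (5.21% of all genes were) and 0 lower (5.72%). In monocytes with Y-linked and no Xist UMIs, 143 and 90 cells, the summed level was 6128 CPM in EC-Cx43-KO and 8275 CPM in control cells. The median there was -0.54, with 1 of 34 higher (5.53% of all genes) and 16 lower (9.21%). Of 34 genes measured in both, 32 were above 0 with Xist and below 0 with Y-linked UMIs, and 12 passed 1.5-fold in opposite ways. The medians over all genes were -0.06 and -0.05.

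Single genes showed the same turn. Isg15 was at 306 CPM in EC-Cx43-KO and 66.2 CPM in control cells with Xist UMIs (log2 ratio 2.21), and at 151 and 183 CPM with Y-linked UMIs (-0.28, interval -0.58 to 0.03). Irf7, a panel C gene that encodes the factor that drives type I interferon production, was at 111 and 41.7 CPM with Xist (1.42) and at 62.7 and 128 CPM with Y-linked UMIs (-1.03). Ly6c2 was at 655 and 305 CPM with Xist (1.10) and at 364 and 617 CPM with Y-linked UMIs (-0.76). Ifi205, Slfn4, Oasl2 and Bst2 were past 1.5-fold in both directions likewise. Among list genes measured in both, Ifit1 was the one higher in both, at 52.1 and 13.4 CPM with Xist (1.96) and 62.7 and 41.6 CPM with Y-linked UMIs (0.59). Ifit3 (2.41 with Xist) was under 50 UMIs in cells with Y-linked UMIs, where its 22 and 3 UMIs gave 2.06 (interval 0.32 to 4.44). S100a9 (1.97 and -2.33) turned in the same way, with 49.9% of its EC-Cx43-KO UMIs in 1 cell. The difference between the splits was not tested, and with 1 pool per group the animals, their sex and the genotype cannot be told apart.

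With at least 2 UMIs of one kind, a limit chosen after the data were seen, the medians were 0.57 and -0.48. Without the panel C comparison they were 1.49 and -0.69, beside -0.10 and -0.06 over all genes. In the other gated cells, which hold the panel C group, the list median was 1.64 for cells with Xist UMIs and -0.32 for those with Y-linked UMIs, beside -0.13 and -0.02 over all genes.

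**Figure D5:**
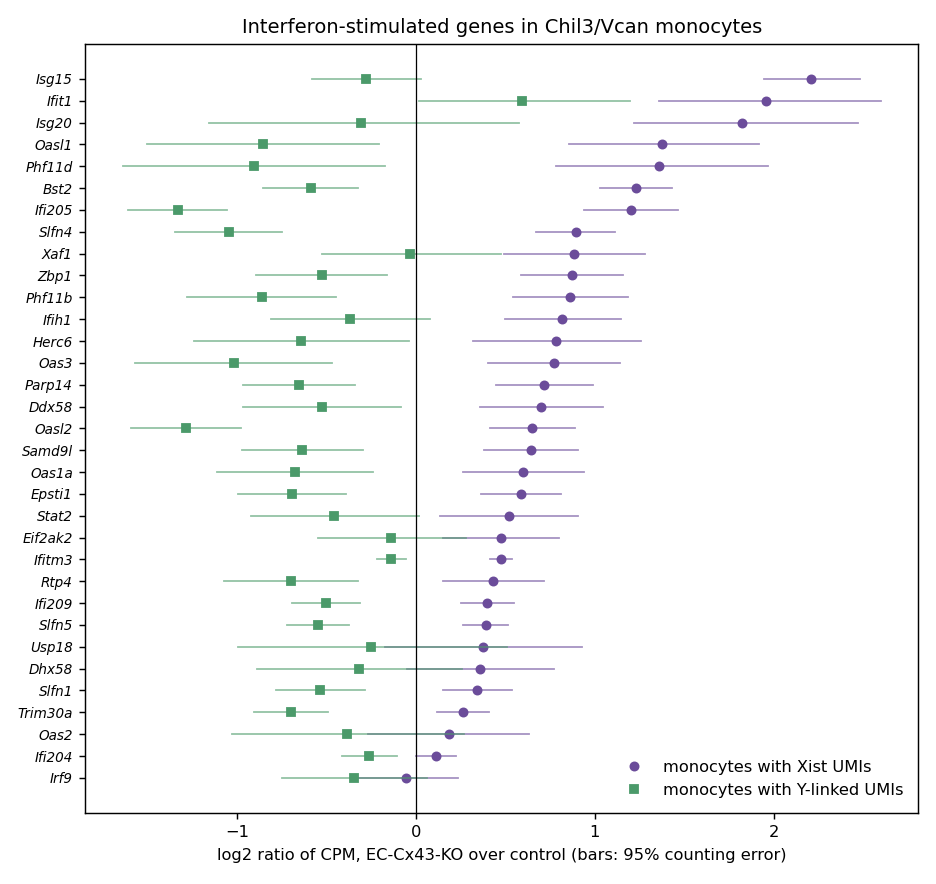
Log2 ratio of CPM, EC-Cx43-KO over control, for interferon-stimulated genes in Chil3/Vcan monocytes, with Xist and no Y-linked UMIs (circles) and with Y-linked and no Xist UMIs (squares), and 95% intervals of counting error as bars. The circle lies right of 0 and the square left of it in the plotted genes other than Ifit1, with both to the right, and Irf9, with both to the left.

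Some other differences passed 1.5-fold the same way in both splits. Of 5752 genes measured in both, 42 were higher and 33 lower in both splits. A further 53 were higher with Xist and lower with Y-linked UMIs, and 20 the other way round. The largest ratios in the weaker split among the 42 included Prtn3, Dcn, Hist1h2ae, Hist1h1b, Gria3 and the haemoglobin gene Hbb-bs. Over all of the monocytes, 1 cell held 27.0% (Dcn) to 90.2% (Hbb-bs) of the EC-Cx43-KO UMIs of each. Without the deep cells and those with markers of another type, Prtn3 came to 0.12, Gria3 to -0.27, Hist1h1b to 0.18 and Hist1h2ae to 0.92. Lpl was at 69.4 CPM in EC-Cx43-KO and 253 CPM in control cells with Xist (-1.86) and at 80.2 and 354 CPM with Y-linked UMIs (-2.14). Ccl12 was at 277 and 114 CPM (1.28) and at 290 and 159 CPM (0.87), Cxcl2 at 2664 and 1394 CPM (0.93) and at 2303 and 1256 CPM (0.87), Ccl7 at 1721 and 1107 CPM (0.64) and at 2263 and 1273 CPM (0.83), and Cxcl3 at 0.62 and 0.94. Cxcl10 was higher in both, at 123 and 12.04 CPM with Xist (3.36) and 178 and 79.6 CPM with Y-linked UMIs (1.16). Vegfa, which drives vessel growth, was at 0.67 and 0.78, Ccl24 at 1.15 and 2.07, and Plxdc2, a plexin domain gene, at -1.24 and -1.56. Lgmn (-0.86 and 0.11) and Ednrb (-0.94 and 0.16), both of panel B, did not keep their direction. Inhba was higher with Xist UMIs (1.72) and at -0.82 with Y-linked UMIs, from 11 UMIs in each library.

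Gja1 differed between the splits. It had 57 UMIs in EC-Cx43-KO and 84 in control cells with Xist (26.0 and 38.9 CPM, -0.58, interval -1.09 to -0.08), and 92 and 14 UMIs in cells with Y-linked UMIs (62.0 and 16.6 CPM, 1.90, interval 1.08 to 2.82). Over all of the monocytes, no cell held more than 5.2% of its EC-Cx43-KO or 6.36% of its control UMIs. The share held by 1 cell was not measured within the splits, where the control count with Y-linked UMIs was 14. Dcn, a fibroblast gene, was at 116 and 19.4 CPM with Xist and at 190 and 23.8 CPM with Y-linked UMIs; after thinning to 2000 UMIs Gja1 was found in 5.02% of EC-Cx43-KO and 4.2% of control monocytes and in 29.0% and 26.6% of fibroblasts, and the part of such RNA was not tested.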

How the data were processed

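UMI counts per gene and barcode were used as deposited, 1 library per group, per the file headers. The submitters' processing notes name Cell Ranger 8.0.1, STAR and the mm10 build. Barcodes had at least 501 UMIs, so cells had been called before deposit. The rule was applied to both libraries, which gives the cells; no doublets were removed, and removing cells by simulated-doublet score (an assumed 0.008 per 1000 cells) was an alternative. Counts were summed over the monocytes of each library and given as CPM of that sum. Log2 ratios are EC-Cx43-KO over control, or monocytes over other cells, with exact conditional binomial intervals. A gene under 3 UMIs took 3, genes needed 50 UMIs in all, and 1.5-fold was the call. Levels have Poisson, shares Clopper-Pearson and share ratios Katz intervals, at 95%. No test was made.

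Genes named by rank needed 100 UMIs: the 10 highest and lowest between groups (in at least 5% of monocytes, and at least as abundant as in other kept cells), the 15 highest and lowest over other gated cells, and the 15 of highest overdispersion. Genes of the rule, Xist and Y-linked genes, unnamed gene models, and genes of ribosomal proteins, haemoglobin, immunoglobulins and mitochondria were not ranked. From each of 31 lists up to 4 members of largest size could be named. Cd177, Lrg1, Napsa and the other genes of the sets counted together, the genes followed over the lead of panel D, and those shown by sex marker were chosen after their values were seen. The cells, panels and lists were chosen with earlier results of these data known, the split by sex markers among them. Alternatives changed the gene and mitochondrial limits, the panel D limit, thinning, doublets, panel C, scaling, the UMI minimum and free RNA. Free RNA was estimated at 8.53% of the monocyte counts in the EC-Cx43-KO and 6.51% in the control library. The ratio and interval code was tested on simulated data. Work was done in Python 3.11.15 (matplotlib 3.10.9, scikit-learn 1.9.0, pandas 2.3.3, SciPy 1.17.1, NumPy 2.4.6). Some genes are not reported here by name and are left out of the figures.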

Additional observations from a re-analysis of the deposited data

Results flagged for a closer look

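Log2 ratios of interferon-stimulated genes, EC-Cx43-KO over control, pointed in opposite ways in monocytes with Xist and in monocytes with Y-linked UMIs. The list median was 0.65 in monocytes with Xist and no Y-linked UMIs, 33 of 34 genes measured in both splits being above 0, and -0.54 in monocytes with Y-linked and no Xist UMIs, 33 of 34 being below 0. The difference was not tested, since each library is 1 pool, and animal, sex and genotype cannot be told apart.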

How the results depend on the processing

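No paired analysis was possible because each group has 1 library and the labels give no replicate numbers. Of the values tied to a comparison 76 stayed within their limits under an alternative and 35 moved, as follows. The share ratio was 0.33 with panel C not compared. After thinning it turned to -0.04, within its interval of -0.06 to 0.32, and is not counted as moved. Genes higher between groups were 254 after thinning, 905 from 20 UMIs, 86 from 200 UMIs and 236 without cells with 3 markers of another type, and genes lower 668 from 20 and 72 from 200 UMIs. Median-of-ratios scaling, which shifts the median of all genes from -0.06 to -0.02, gave a higher share of calls of 61.0%, against 53.4%. That share was 44.0% after thinning, 44.4% with free RNA subtracted, 46.5% by mean single-cell CPM, 40.7% without cells with other markers and 47.0% without deep cells, so lower calls outnumbered higher ones there. Genes of the lists, 34 higher and 4 lower, were 74, 53 and 14 higher with panel C not compared, from 20 and from 200 UMIs. Lower ones were 10 with 4 panel D genes, 24 after thinning, 8 with doublets removed, 2 by median-of-ratios, 8 by mean single-cell CPM, 8 from 20 UMIs, 12 with free RNA subtracted, 7 without cells with other markers and 8 without deep cells. Genes higher than in other gated cells were 534 from 20 UMIs and 725 with free RNA subtracted, and lower ones 1010 after thinning and 906 from 200 UMIs. The interferon list median of 0.14 was 0.18 with 4 panel D genes, 0.30 after thinning, 0.11 with doublets removed, 0.73 with panel C not compared, 0.18 by median-of-ratios, 0.23 by mean single-cell CPM, 0.27 without cells with other markers, 0.17 without deep cells, 0.65 in Xist and -0.54 in Y-linked cells, and 1.49 and -0.69 in these with panel C not compared.

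Single genes turned in direction after thinning (Areg -0.85, Dhdh 0.34, Hist1h2ap -0.23, Tmem80 0.11), with doublets removed (Csf1 -0.015), without cells over 20000 UMIs (Gria3 -0.16, Hist1h2ap -0.30) and in cells with Y-linked UMIs (Ednrb 0.16, Hbegf -0.50, Inhba -0.82, Isg15 -0.28, Isg20 -0.30, Rsad2 -1.02). The mitosis list median was -0.16 after thinning and -0.034 by mean single-cell CPM. The causes were not tested. Counts of genes depend on the UMI minimum, below which 1.5-fold lies within counting error for many of them.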
